A study of Homo sapiens with 6 samples.

Results

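Chromatin remodellers are enzymes that use ATP to slide, evict or restructure nucleosomes, and 49 genes for subunits of the BAF (SWI/SNF), NuRD, CHD, ISWI and INO80 remodellers were followed here between human embryonic stem cells (hESCs) and neuromesodermal progenitor-like (NMP-L) cells. They were picked by name, as subunits of these complexes, from the 27672 genes of the table, at a time when earlier results of these data were known. They comprise 26 SWI/SNF genes, 14 NuRD genes, 6 further CHD genes, 2 ISWI ATPases and INO80, and all but 5 of them (ARID2, PBRM1, SMARCB1, SMARCE1 and INO80) belong to 18 families of paralogues. BAF complexes carry a single ATPase, SMARCA4 (BRG1) or SMARCA2 (BRM), and a single paralogue at several other positions, so the composition of the complex differs between cell types. The best known exchange takes place as neural progenitors leave the cell cycle, when ACTL6B, DPF1, DPF3 and SS18L1 take the places of ACTL6A, PHF10, DPF2 and SS18. NuRD joins a CHD3, CHD4 or CHD5 ATPase to the histone deacetylases HDAC1 and HDAC2, and its MTA, MBD, GATAD2 and RBBP subunits are likewise drawn from paralogues.

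H9 hESCs (day 0) were grown without feeders in DEF medium with bFGF at 30 ng/ml and Noggin at 10 ng/ml on fibronectin. NMP-L cells (day 3) were made from them by culture for 3 days in Neurobasal medium with N2/B27, bFGF at 20 ng/ml and CHIR99021, a GSK3 inhibitor that activates Wnt signalling, at 3 µM. PolyA RNA of 3 biological replicates of each condition was sequenced. All libraries come from a single cell line, and no source says how the replicates relate to thaws or passages, so the p-values measure the spread between these libraries. Each library is a whole culture, so fewer cells that express a gene and less RNA per cell cannot be told apart. Medium, bFGF, Noggin and CHIR99021 changed together with cell state, so their parts in any difference cannot be told apart either.

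Expected counts summed to between 19454543 and 23036426 per library, and 3 counts, taken as the detection floor, corresponded to 0.130 to 0.154 CPM (counts scaled to the library total). CPM levels of genes given below were also scaled by a TMM factor for each library, between 0.963 and 1.0392. The labels were checked against lists of marker genes. Of the pluripotency markers 6 of 7 were lower in NMP-L cells, NANOG by 2.59 on the log2 scale, and all 7 tested markers of NMP-L cells or the primitive streak were higher, SP5 by 7.53 on the log2 scale. FGF8, also on that list, was too low to test and went the other way, at 0.57 to 1.45 TPM in hESCs and 0.12 to 0.37 TPM in NMP-L cells. The summed level of the 8 neuron markers was 76.3 to 90.3 CPM in hESCs and 125 to 134 CPM in NMP-L cells. Only the neurofilament gene NEFL was higher among them, ELAVL3, STMN2 and SYP were lower, 3 did not pass the threshold and SNAP25 was too low to test. SOX1 was the only one of 5 neural progenitor markers that could be tested and it was higher, while PAX6 was at 0.05 to 0.39 TPM in hESCs and at 0 to 0.01 TPM in NMP-L cells. Of 5 endoderm markers FOXA2 was higher, CXCR4 did not pass the threshold, GATA4 and GATA6 were too low to test and SOX17 was at or under the floor in every library. Of 8 markers of paraxial and cardiac mesoderm TBX6 and TNNT2 were lower, MESP2 did not pass the threshold and the other 5 were too low to test. The part that a change in the mixture of cells plays in the results below was not tested.

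Of the 48 members that passed the filter on low counts, 16 had higher and 8 lower levels after differentiation and 24 did not pass, at an adjusted p under 0.05 in edgeR's quasi-likelihood test. That is 50% of the members, set against 55.8% of all 15517 genes tested (29.1% higher and 26.7% lower). A change of at least 1.5-fold was reached by 7 members that were higher and 3 that were lower (17.3% and 16.2% of all genes tested). The median size of the change was 0.29 on the log2 scale for the members and 0.40 for all genes, and the median signed change was 0.06 against 0.03. Calls were unevenly spread over the complexes. All 6 CHD genes outside NuRD were called, with 4 higher and 2 lower, although CHD6 and CHD9 lost their calls in some other settings. Of 25 SWI/SNF genes 11 were higher and 3 lower, so that 56% were called, near the 55.8% of all genes tested. Of the 14 NuRD genes 1 was higher, 3 were lower and 10 did not pass the threshold, so that 28.6% were called. DPF3, a BAF45 paralogue, had counts of 0, 2 and 4 in hESCs and 4, 0 and 2 in NMP-L cells and was not tested. The split of calls depended on the scale, since 21 members were higher and 6 lower in a limma fit to log2(TPM + 1), where the median gene lay at 0.11.

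**Figure D1:**
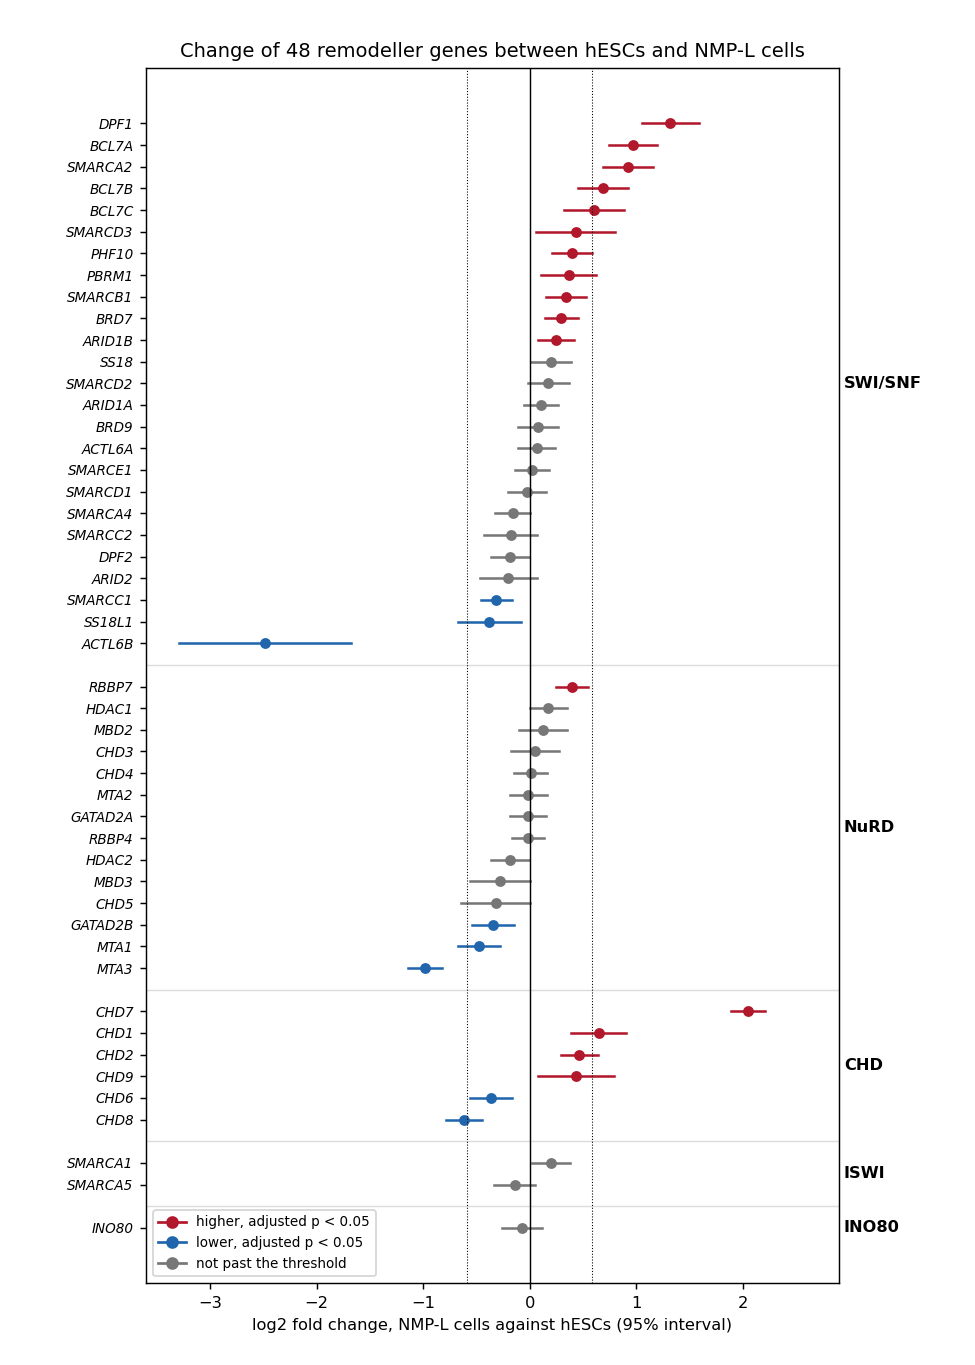
Log2 fold change of each of the 48 tested members in NMP-L cells against hESCs (x axis), with points for the edgeR estimate and bars for its 95% interval, grouped by complex. Red points are higher and blue points lower at an adjusted p under 0.05, grey points did not pass, and the dotted lines mark 1.5-fold. CHD7 at 2.05 and ACTL6B at -2.49 lie farthest from 0, and 10 of the 14 NuRD genes are grey.

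Levels are given below as TPM, which is scaled by transcript length, with the libraries in the order of replicates 1, 2 and 3. Fold changes and adjusted p-values come from the edgeR test on counts. TPM ranges of the conditions did not overlap for 35 of the 48 tested members (72.9%, against 63% of all genes tested). For any such gene the exact two-sided permutation test gives p = 0.1, which is the minimum for groups of 3.

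The largest rise was that of CHD7, an ATPase of the CHD6 to CHD9 subfamily whose loss of function causes CHARGE syndrome and which is known to act in neural crest and neural progenitors. CHD7 was measured at 10.7, 10.3 and 10.3 TPM in hESCs and at 45.0, 46.2 and 47.5 TPM in NMP-L cells. Every NMP-L library was far above every hESC library, with little spread within either condition. CHD7 rose 4.14-fold (log2 fold change 2.05, SE 0.07, adjusted p = 2.9e-09, edgeR). CHD8, a paralogue known as a negative regulator of β-catenin target genes, was measured at 84.2, 77.1 and 81.6 TPM in hESCs and at 57.4, 56.5 and 54.4 TPM in NMP-L cells. The groups did not overlap, and CHD8 fell 1.53-fold (log2 fold change -0.62, SE 0.08, adjusted p = 3.3e-05, edgeR). CHD6, whose role is less well known, was at 19.5, 16.4 and 20.3 TPM in hESCs and at 15.8, 14.9 and 16.1 TPM in NMP-L cells, a fall by 0.36 on the log2 scale (adjusted p = 0.0050, edgeR). CHD9 was the least abundant, at 8.18, 4.72 and 6.90 TPM in hESCs and 8.34, 8.88 and 11.4 TPM in NMP-L cells. In TPM its lowest NMP-L library barely exceeded its highest hESC library. In CPM with TMM scaling the groups overlapped, with hESC 1 at 46.0 and NMP-L 1 at 45.4. The CHD9 call (log2 fold change 0.43, adjusted p = 0.040, edgeR) was lost when hESC 2, hESC 3, NMP-L 2 or NMP-L 3 was left out and in the limma fit (adjusted p between 0.054 and 0.16).

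These opposite movements changed the composition of the subfamily more than that of any other family examined, whereas its summed level rose only 1.09-fold, from 117 ± 7.37 to 127 ± 1.73 TPM (SD, n = 3). CHD7 made up 8.74%, 9.48% and 8.66% of the summed TPM of CHD6 to CHD9 in hESCs and 35.5%, 36.5% and 36.7% in NMP-L cells, a shift of 27.3 percentage points. CHD8 made up 69.4% ± 1.44 in hESCs and 44.02% ± 1.74 in NMP-L cells (SD, n = 3). In TPM CHD8 remained the most abundant of the 4 in every library, and the ratio of CHD7 to CHD8 TPM went from 0.129 to 0.825. In CPM, which is not scaled by transcript length, CHD8 led in every hESC library and CHD7 in every NMP-L library.

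CHD1 and CHD2 rose together. CHD1, which reads the H3K4me3 mark and is needed for the open chromatin of mouse embryonic stem cells, was at 31.7, 22.9 and 25.7 TPM in hESCs and 38.2, 45.5 and 50.7 TPM in NMP-L cells. Its replicates spread widely, with hESC 1 the highest of its group, but the groups did not overlap. CHD1 rose 1.57-fold (log2 fold change 0.65, SE 0.12, adjusted p = 6.6e-04, edgeR). CHD2, a paralogue linked to epileptic encephalopathy, was at 30.8, 25.0 and 25.7 TPM in hESCs and at 42.5, 42.0 and 48.9 TPM in NMP-L cells. On counts CHD2 rose 1.38-fold (log2 fold change 0.47, adjusted p = 4.0e-04, edgeR). The ratio of its counts to its TPM, a measure of the transcript length that RSEM assigned, was 9.8% lower in NMP-L cells without overlap between the groups, so its TPM rose more than its counts. The summed TPM of the pair rose 1.66-fold while each gene supplied close to the same amount. CHD1 made up 49.5% ± 1.52 in hESCs and 50.1% ± 2.43 in NMP-L cells (SD, n = 3), and the leading paralogue of the pair differed between conditions only as a near-tie, with no consistent leader among the libraries of either condition.

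**Figure D2:**
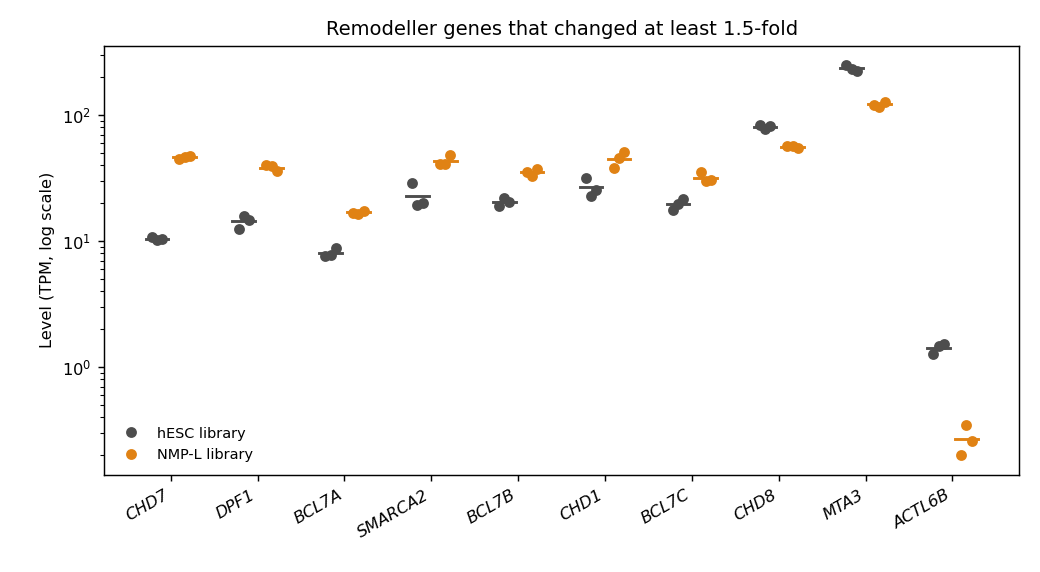
TPM (log scale) of the 10 members that changed by at least 1.5-fold and passed the threshold, with 1 point per library and a bar at the mean of each condition. The groups are apart for every gene, and ACTL6B lies below 2 TPM throughout while MTA3 lies above 100 TPM.

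Most RNA for the BAF ATPases came from SMARCA4 in both conditions, with a larger part from SMARCA2 after differentiation. These libraries hold RNA only, so RNA shares here and in the other families need not match the shares of paralogues in assembled complexes. SMARCA2 was at 29.1, 19.3 and 20.0 TPM in hESCs and at 40.8, 41.0 and 48.6 TPM in NMP-L cells. hESC 1 was the highest of its group, yet every NMP-L library exceeded it. SMARCA2 rose 1.897-fold (log2 fold change 0.92, SE 0.11, adjusted p = 2.2e-05, edgeR), and the change lay between 0.83 and 1.03 on the log2 scale under 15 other settings, those without each library included. SMARCA4 was at 160 ± 7.85 TPM in hESCs and 153 ± 5.71 TPM in NMP-L cells (SD, n = 3), a difference that did not pass the threshold (log2 fold change -0.16, 95% interval -0.33 to 0.01, adjusted p = 0.096, edgeR) but did without hESC 1 (adjusted p = 0.018). After correction for transcript length and GC content the SMARCA4 difference had the opposite sign, at 0.09, and was not called. SMARCA2 supplied 16.1%, 10.4% and 10.95% of the summed ATPase TPM in hESCs and 20.5%, 21.8% and 24.1% in NMP-L cells.

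The BAF45 genes showed the widest shift in RNA shares within BAF. DPF1 (BAF45B), known as a subunit of the neuronal complex, was at 12.5, 15.8 and 14.7 TPM in hESCs and at 40.0, 39.2 and 35.8 TPM in NMP-L cells. The lowest NMP-L value was more than double the highest hESC value. DPF1 rose 2.499-fold (log2 fold change 1.32, SE 0.12, adjusted p = 3.7e-06, edgeR). PHF10 (BAF45A), a subunit of the PBAF form found in proliferating progenitors, was at 45.0, 42.9 and 47.2 TPM in hESCs and 61.3, 60.8 and 68.1 TPM in NMP-L cells. It rose by a smaller step without overlap (log2 fold change 0.40, adjusted p = 0.0022, edgeR), and this call was lost after correction for transcript length and GC content (adjusted p = 0.060). DPF2 (BAF45D), the most abundant paralogue, was at 90.8, 92.8 and 94.6 TPM in hESCs and 88.0, 89.5 and 83.7 TPM in NMP-L cells, slightly lower without overlap but not past the threshold (log2 fold change -0.18, adjusted p = 0.075, edgeR, and 0.027 to 0.050 in the 4 other settings where it passed). The DPF2 share of the family was 61.0% ± 0.478 in hESCs and 46.1% ± 1.37 in NMP-L cells, and the DPF1 share was 9.41% ± 1.01 and 20.3% ± 1.05 (SD, n = 3). DPF3 was listed at 0.00 to 0.26 TPM in all libraries. Levels of neuron and neural progenitor markers are given above, and their part in the DPF1 result was not tested.

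The other subunits of the neuron-specific exchange did not rise. ACTL6B (BAF53B), the neuronal paralogue of the actin-like subunit ACTL6A, had 17, 21 and 21 counts in hESCs and 3, 5 and 4 in NMP-L cells, that is, 1.28, 1.47 and 1.52 TPM against 0.20, 0.35 and 0.26 TPM. The NMP-L libraries were at or just above the floor of 3 counts. ACTL6B fell by 2.49 on the log2 scale (SE 0.37, adjusted p = 1.5e-04, edgeR), a size that rests on these few counts and was -0.93 in the limma fit to log2(TPM + 1), and ACTL6A supplied over 98% of the pair in every library. ACTL6A itself was at 85.0 ± 0.785 and 95.1 ± 4.12 TPM (SD, n = 3; log2 fold change 0.06, adjusted p = 0.50, edgeR). SS18L1 (CREST) was at 8.73 ± 1.18 TPM in hESCs and 7.14 ± 1.03 TPM in NMP-L cells (SD, n = 3), with groups that overlapped in TPM. Its fall by 0.38 on the log2 scale (adjusted p = 0.030, edgeR) lost the threshold without hESC 3, NMP-L 1 or NMP-L 2, with library size only and in the limma fit (adjusted p between 0.076 and 0.15).

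All 3 BCL7 genes, which encode small accessory subunits of BAF, rose. BCL7A was at 7.67, 7.74 and 8.86 TPM in hESCs and 16.8, 16.4 and 17.5 TPM in NMP-L cells (log2 fold change 0.97, SE 0.10, adjusted p = 1.1e-05, edgeR). BCL7B was at 18.9, 22.0 and 20.6 TPM in hESCs and 35.6, 33.0 and 37.4 TPM in NMP-L cells (log2 fold change 0.69, SE 0.11, adjusted p = 2.2e-04, edgeR). BCL7C was at 17.7, 19.7 and 21.5 TPM in hESCs and 35.2, 30.0 and 30.5 TPM in NMP-L cells (log2 fold change 0.61, SE 0.13, adjusted p = 0.0018, edgeR), and its log2 fold change was 0.93 after correction for transcript length and GC content. In each of the 3 genes the lowest NMP-L value was above the highest hESC value. Their summed TPM rose 1.75-fold, the largest ratio of any family, while the share of each paralogue moved by at most 3.33 percentage points. BCL7B and BCL7C were close to equal, and BCL7C led in hESC 3.

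Since the 3 BCL7 genes lie on different chromosomes and moved together, the 250 bases before the annotated start of each are shown, from RefSeq on GRCh38.p14 and on the strand of the gene. They lie at chr12:122021634-122021883 on the plus strand for BCL7A, at chr7:73557691-73557940 on the minus strand for BCL7B, which has a second start in the table, and at chr16:30894078-30894327 on the minus strand for BCL7C. Capitals mark the GC box GGGCGG, the core of Sp1 and KLF family binding sites, read on either strand.
BCL7A: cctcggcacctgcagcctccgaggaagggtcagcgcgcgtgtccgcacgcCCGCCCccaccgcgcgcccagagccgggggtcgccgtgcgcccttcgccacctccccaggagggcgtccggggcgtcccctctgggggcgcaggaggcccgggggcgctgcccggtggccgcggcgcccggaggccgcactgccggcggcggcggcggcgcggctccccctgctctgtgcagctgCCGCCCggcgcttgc
BCL7B: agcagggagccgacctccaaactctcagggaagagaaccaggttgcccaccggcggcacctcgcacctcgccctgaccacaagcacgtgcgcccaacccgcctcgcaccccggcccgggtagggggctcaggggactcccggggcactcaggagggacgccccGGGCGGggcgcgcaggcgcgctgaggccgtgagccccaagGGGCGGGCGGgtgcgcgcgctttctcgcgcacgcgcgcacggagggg
BCL7C: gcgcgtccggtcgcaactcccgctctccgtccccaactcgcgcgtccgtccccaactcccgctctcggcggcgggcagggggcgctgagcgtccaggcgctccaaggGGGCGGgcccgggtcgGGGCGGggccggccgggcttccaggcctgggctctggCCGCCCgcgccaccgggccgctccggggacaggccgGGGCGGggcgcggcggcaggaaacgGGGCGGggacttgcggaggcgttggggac
These stretches consist of G and C to 82.4%, 75.6% and 80.8%, with 38, 31 and 38 CpG dinucleotides, and hold 2, 3 and 5 GC boxes. A GC box stood in the same window of 46.2% of the 27305 genes with a RefSeq promoter entry, expressed or not, and of 35 of the 42 members with an entry. Nearly all members were expressed, so these sets are unlike. None of the 3 BCL7 windows held the TCF/LEF core CTTTGAT (both strands), which stood in 2.75% of the 27305 genes and, among members, in CHD2 and SMARCD2. None held the ETS core CCGGAAG (both strands), which stood in 10.2% of the 27305 genes and in 5 of the 42 members, SMARCA2 among them. These matches describe letters in a window and not bound sites.

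The remaining BAF genes changed little. Higher by less than 1.5-fold were PBRM1, which defines PBAF (log2 fold change 0.37), the core subunit SMARCB1 (0.34), the bromodomain subunit BRD7 (0.30), the DNA-binding subunit ARID1B (0.25) and SMARCD3, a BAF60 paralogue known from heart (0.43). Of these, SMARCB1 and BRD7 kept their calls under every setting tried, SMARCB1 at 0.56 after correction for transcript length and GC content. PBRM1 lost its call without hESC 2, hESC 3, NMP-L 2 or NMP-L 3 (adjusted p between 0.055 and 0.096), ARID1B without hESC 3 or NMP-L 1 and with replicate number as a block (0.070 to 0.082), and SMARCD3 in 10 of 15 settings (0.058 to 0.19). SMARCC1 (BAF155), the scaffold paralogue favoured in mouse embryonic stem cells, was lower at 213 ± 10.3 TPM in hESCs and 183 ± 6.21 TPM in NMP-L cells (SD, n = 3; log2 fold change -0.31, adjusted p = 0.0022, edgeR). Its partner SMARCC2 (BAF170) did not pass the threshold (log2 fold change -0.18, adjusted p = 0.20, edgeR), and the SMARCC1 share of the pair overlapped between conditions, at 84.9% and 83.6% on average. ARID1A, SMARCD1, SMARCD2, SS18, BRD9, ARID2 and SMARCE1 did not pass, with log2 fold changes between -0.20 and 0.20. BRD9 was the only member with fractional expected counts, which mark reads shared with another gene.

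**Figure D3:**
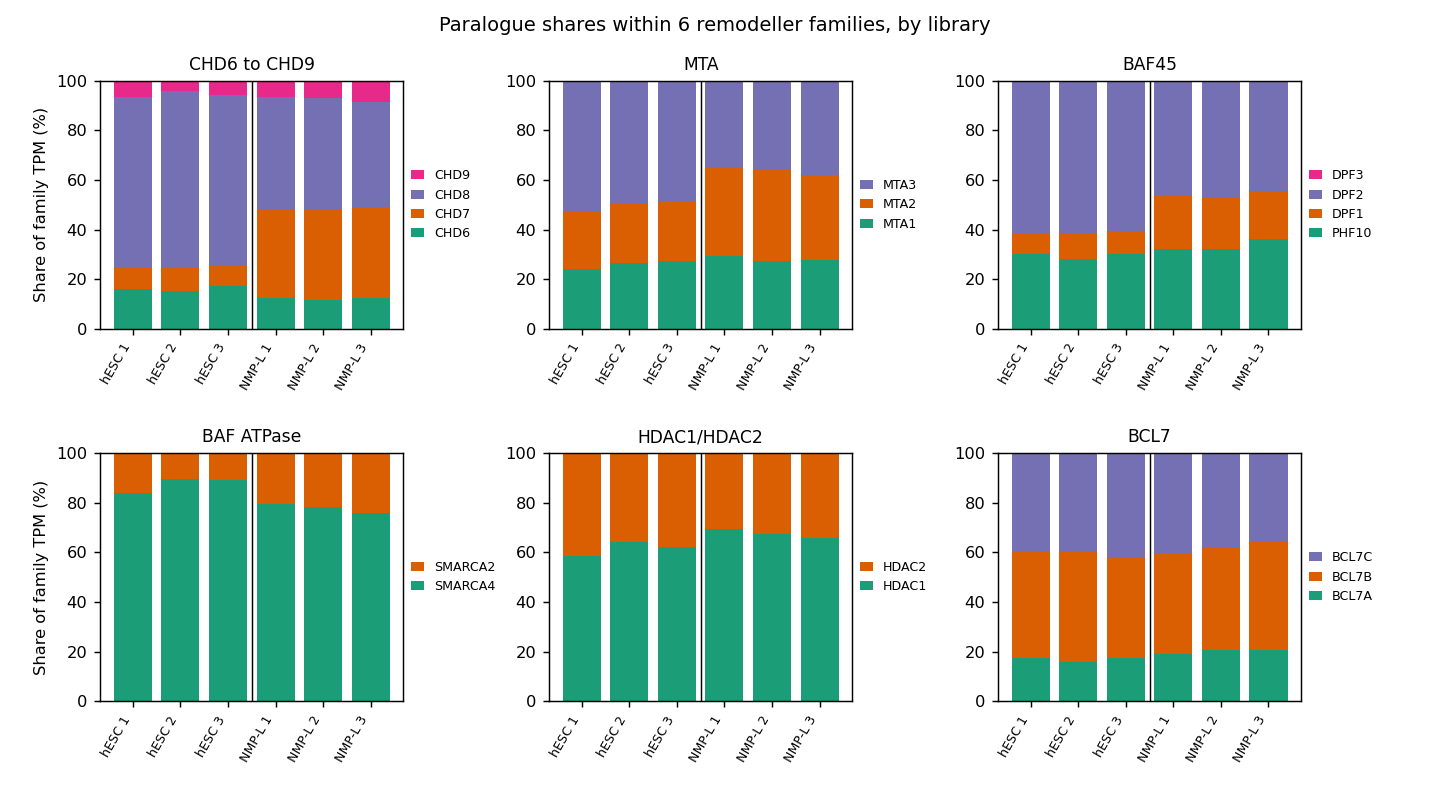
Share of each paralogue in the summed TPM of its family (y axis, %) in each of the 6 libraries (x axis), for 6 families, with the vertical line between hESC and NMP-L libraries. CHD7 grows from about 9% to 36% of CHD6 to CHD9, MTA3 falls from 50.1% to 36.4%, DPF1 grows from 9.41% to 20.3% and SMARCA2 from 12.5% to 22.1%, while the 3 BCL7 shares move little.

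Of the 4 NuRD genes called, MTA3 and MTA1 encode subunits that bridge the deacetylases to the rest of the complex, and RBBP7 and GATAD2B are described after them. MTA3 was at 249, 234 and 223 TPM in hESCs and at 121, 115 and 128 TPM in NMP-L cells. It had close to the same level in all libraries of a condition and fell 1.97-fold (log2 fold change -0.98, SE 0.07, adjusted p = 6.7e-07, edgeR). MTA1 was at 115, 126 and 126 TPM in hESCs and 102, 86.8 and 94.0 TPM in NMP-L cells, a fall without overlap (log2 fold change -0.47, SE 0.09, adjusted p = 7.9e-04, edgeR) whose size was -0.20 after correction for transcript length and GC content, with the call kept. MTA2 was at 109, 114 and 112 TPM in hESCs and 123, 117 and 115 TPM in NMP-L cells. Those TPM ranges were apart, but on counts MTA2 did not differ beyond the spread (log2 fold change -0.01, 95% interval -0.18 to 0.16, adjusted p = 0.90, edgeR). The summed TPM of the 3 genes was 469 ± 6.99 in hESCs and 334 ± 13.8 in NMP-L cells (SD, n = 3), a ratio of 0.712 and the largest fall of any family. The MTA3 share fell from 50.1% ± 2.22 to 36.4% ± 1.49 and the MTA2 share rose from 23.8% ± 0.602 to 35.4% ± 1.25. The ratio of MTA2 to MTA3 was 0.439, 0.485 and 0.501 in hESCs and 1.01, 1.01 and 0.897 in NMP-L cells, so that MTA3 led by a wide margin before differentiation and was level with MTA2 after it.

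The deacetylases and ATPases of NuRD did not pass the threshold. HDAC1 was at 189, 207 and 190 TPM in hESCs and 236, 234 and 239 TPM in NMP-L cells. The TPM ranges were apart, but the change on counts did not pass the threshold (log2 fold change 0.18, 95% interval 0.01 to 0.35, adjusted p = 0.072, edgeR). It passed with library size only, in the limma fit, without hESC 2 and after correction for transcript length and GC content (adjusted p between 0.0033 and 0.029). HDAC2 had a log2 fold change of -0.18 (adjusted p = 0.075, edgeR, and 0.0012 to 0.043 in the 3 other settings where it passed) and groups that overlapped in TPM. The HDAC1 share of the pair was 61.6% ± 2.88 in hESCs and 67.4% ± 1.87 in NMP-L cells (SD, n = 3) without overlap. CHD4 had the most RNA of the NuRD ATPase genes, at 184 ± 6.40 and 198 ± 2.87 TPM (log2 fold change 0.01, 95% interval -0.15 to 0.16, adjusted p = 0.93, edgeR), and supplied 94.8% of the CHD3, CHD4 and CHD5 sum in both conditions. RBBP7, a histone-binding subunit that NuRD shares with Polycomb and Sin3 complexes, was the only NuRD member that rose, from 317 ± 6.37 to 446 ± 17.1 TPM (SD, n = 3; log2 fold change 0.39, adjusted p = 4.5e-04, edgeR), while RBBP4 had a log2 fold change of -0.02 (adjusted p = 0.85, edgeR). GATAD2B, which links the methyl-CpG-binding subunit to the ATPase, fell by 0.34 on the log2 scale (adjusted p = 0.0059, edgeR). GATAD2A, MBD2, MBD3, CHD3 and CHD5 did not pass the threshold.

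The ISWI ATPases and INO80 did not pass the threshold either. SMARCA1 (SNF2L) had a log2 fold change of 0.20 (adjusted p = 0.0502, edgeR) and SMARCA5 (SNF2H) of -0.14 (adjusted p = 0.20, edgeR). SMARCA5 supplied 66.8% ± 0.90 of their sum in hESCs and 61.4% ± 0.716 in NMP-L cells (SD, n = 3). INO80 was at 19.5 ± 0.519 and 19.9 ± 0.989 TPM (SD, n = 3; adjusted p = 0.49, edgeR).

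Across all 18 families, the share of at least 1 paralogue did not overlap between conditions in 15, with BAF155/BAF170, CHD1/CHD2 and MBD2/MBD3 as the exceptions. A share within a library does not depend on the scaling between libraries. The shift reached 10 percentage points in 3 families, CHD6 to CHD9, BAF45 and MTA, and was 9.61 points for the BAF ATPases. In TPM, no family passed the lead from a paralogue that led in every hESC library to another that led in every NMP-L library. Summed TPM did not overlap between conditions in 15 of 18 families, beside 63% of single genes whose TPM did not overlap, and after BCL7 and CHD1/CHD2 the largest ratios were those of RBBP4/RBBP7 (1.33-fold), BRD7/BRD9 (1.28-fold) and BAF45 (1.24-fold). These sums are in TPM, where the median gene lay at 0.11 on the log2 scale. No background was computed for shares or sums over families. A longer transcript yields more reads, so the leader in CPM need not be the leader in TPM. Without length scaling, on CPM, 4 families had another leader in NMP-L cells than in hESCs (BCL7, CHD6 to CHD9, MTA and RBBP4/RBBP7). In these 4 families the CPM leader was the same in every library of a condition, so the absence of such a switch holds for TPM only.

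Genes for other parts of the same machinery were taken from a list of 59, all of which were tested. Of these 7 (11.9%) were higher and 18 (30.5%) lower, against 29.1% and 26.7% of all genes. Among partners of NuRD and the related LSD1 (CoREST) complex 8 of 9 were lower. The demethylase KDM1A (LSD1) fell by 0.53, the scaffolds RCOR1 and RCOR2 by 0.58 and 0.32, the pluripotency factor SALL4 by 0.70, CDK2AP1 by 0.85, ZNF512B by 0.75 and ZMYND8 by 0.33 on the log2 scale. The RCOR2 call was lost in 4 of 15 settings, without hESC 3, NMP-L 2 or NMP-L 3 and after correction for transcript length and GC content, where its log2 fold change was 0.01. ZNF512B was at -0.47 after that correction. CDK2AP2 was the exception at 0.28 (adjusted p = 0.070, edgeR). Between 7 and 8 of the 9 were lower under each of 15 other settings. The largest falls in the list of 59 were those of the NuRD partner ZNF827 (log2 fold change -1.05), HELLS, an ATPase needed for DNA methylation (-1.03), and CECR2, an ISWI partner (-0.98). The largest rises were those of ERCC6, an ATPase of transcription-coupled repair (0.77), the ISWI partner BAZ1A (0.52) and the INO80 actin-related subunit ACTR5 (0.51). Of 20 INO80 and SRCAP genes 3 were higher and 3 lower, of 12 ISWI partners 1 was higher and 2 lower, of 13 other SNF2 ATPases 3 were higher and 3 lower, and of 5 further SWI/SNF genes 2 were lower. The pluripotency markers fell in the same samples, and their part in the fall of the NuRD partners was not tested.

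**Figure D4:**
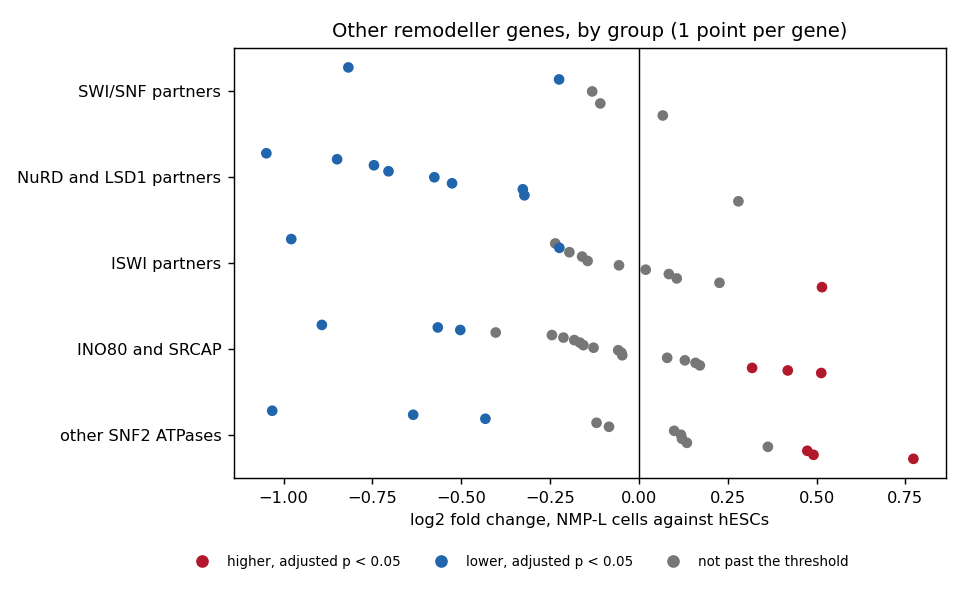
Log2 fold change in NMP-L cells against hESCs (x axis) of 59 other remodeller genes in 5 groups (y axis), 1 point per gene, red where higher and blue where lower at an adjusted p under 0.05 and grey otherwise. In the NuRD and LSD1 group 8 of 9 points are blue, and the other 4 groups hold points on both sides of 0.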

How the data were processed

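Single-end reads of 76 bp were obtained from 3 hESC and 3 NMP-L libraries of polyadenylated RNA. The submitters' processing notes name cutadapt 1.9.1, STAR 2.5.2a, RSEM 1.3.0, DESeq2 1.12.3 and hg19, and the annotation is not given in the sources used here. The table the authors deposited holds expected counts from RSEM that are not normalized between libraries. It also holds the authors' TPM values, scaled for effective transcript length to 1000000 in each library. RSEM divides reads shared between genes, and 8.44% of genes had fractional counts. For hESCs the labels give DEF medium on fibronectin, whereas the study's Methods give TESR on Geltrex. The Methods also add Noggin and a TGFβ inhibitor to the medium around day 3, whereas no Noggin is listed for the NMP-L libraries.

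Expected counts were rounded, filtered with filterByExpr at a minimum count of 10, which left 15517 of 27672 genes, and scaled with TMM factors. Condition was tested in edgeR 4.0.16 (R 4.3.3) by glmQLFit and glmQLFTest, p-values were adjusted over all genes tested by the Benjamini-Hochberg method, and the threshold was 0.05. The fits were tested on simulated data. Paralogue shares are shares of the family's summed TPM in each library. Exact permutation tests were two-sided over the 6 libraries.

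Values in every library are given for members past the threshold with at least a 1.5-fold change, for the members of families whose leader differed or whose share moved by at least 10 percentage points, and for SMARCA2 and HDAC1, which the study discusses. Of the 59 other remodeller genes the 3 largest rises and falls are named, with the NuRD partners named as a group after their values were seen, and marker genes are named by list. The members and lists were chosen with earlier results of these data known.

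Alternatives were RLE, upper-quartile and library-size scaling, DESeq2 1.42.0, limma 3.58.1 on log2(TPM + 1), stricter and looser filters, a replicate block, each library left out, and CPM shares. A correction for GC content and transcript length (lowess span 0.3, GENCODE release 44 on GRCh37) was added after seeing the data. Promoter sequences came from RefSeq (GRCh38.p14), in which 42 of 49 members had an entry. Tables were joined in Python 3.11.15 and plotted with matplotlib 3.10.9.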

Additional observations from a re-analysis of the deposited data

How the results depend on the processing

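Across 15 alternative settings no called member changed direction, and 17 of the 24 called members kept their call wherever they were tested. Calls of SMARCD3, CHD9, PBRM1, ARID1B, SS18L1, CHD6 and PHF10 were lost in some settings, CHD6 only in the limma fit (adjusted p = 0.070), and ACTL6B could not be tested under the filter that asks for 10 counts in each library. Of the 24 members not called, 12 gained a call in at least 1 setting. SMARCA1, SMARCD2, DPF2 and HDAC1 did so in 4 each, ARID1A, SS18 and HDAC2 in 3 each, MBD3 and ARID2 in 2 each, and SMARCA4, ACTL6A and SMARCA5 in 1 each. Leaving out each library in turn gave 12 to 17 members higher and 7 to 11 lower, with 6 to 7 higher and 2 to 3 lower by at least 1.5-fold. With library size only, 21 members were higher and 7 lower. Of the other remodeller genes, 13 were higher in the limma fit to log2(TPM + 1) and 11 after correction for transcript length and GC content, against 7 in the reported fit. The number of families whose leading paralogue differed was 4 with CPM shares and 0 to 1 with a library left out, 0 without hESC 2 or NMP-L 2, and without NMP-L 3 the family was MTA in place of CHD1/CHD2. The causes of these differences were not tested.

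Both conditions use replicate numbers 1, 2 and 3, but no source pairs the libraries. Across genes, the deviations from the condition means correlated at -0.36, -0.06 and -0.15 between libraries of the same number. With the replicate block 7560 genes were called in place of 8653, and 14 members were higher and 8 lower. The block removed the calls of ARID1B and SMARCD3. Depth limits DPF3, with at most 4 counts in any library, and ACTL6B, with 3 to 5 counts in NMP-L libraries, and the number of libraries limits every exact p to 0.1 or above.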

Other observations

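Outside the comparisons above, the ratio of expected counts to TPM, centred on the median gene of each library, gave the transcript length that RSEM assigned to a gene. It was examined after the data were seen, for 11883 genes with at least 50 counts and 1 TPM in every library, 46 members among them. A change of at least 1.1-fold in either direction without overlap between the conditions was found for 105 of these genes (0.884%). CHD2 was the only member among them, with the change down, and relative to its hESC mean its assigned length was 95.05%, 101.60% and 103.56% in hESC 1, 2 and 3 and 93.06%, 88.82% and 88.85% in NMP-L 1, 2 and 3. Its groups lie apart by less than the hESC libraries spread, and which transcripts lie behind this was not tested.

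Among the INO80 and SRCAP genes, YY1, a zinc-finger protein that recruits INO80, fell by 0.57 on the log2 scale, INO80D by 0.89 and the SRCAP subunit ZNHIT1 by 0.50, whereas ACTR5, UCHL5 and NFRKB of the INO80 complex rose by 0.51, 0.42 and 0.32 (edgeR, adjusted p at most 0.017). The NFRKB call was lost in 4 of 15 settings, without hESC 1, NMP-L 1 or NMP-L 2 and with the replicate block (adjusted p = 0.060), and the UCHL5 call was lost without hESC 3. After correction for transcript length and GC content the UCHL5 change was 0.21, and without hESC 1 the ACTR5 change was 0.33, both still called. These genes were named after their values were seen.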
